A study of Mus musculus with 6 samples.

Results

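Endothelial adhesion and junction genes were followed in whole mouse aortas as 10 genes chosen by name, namely Vcam1, Icam1, Icam2, Sele, Selp, Pecam1, Cdh5, Mcam, F11r and Jam2. The array annotation gave 1 of these symbols to 20 of the 45101 probe sets, and each of the 10 genes had at least 1. Of the 20, 11 probe sets of 8 genes averaged a signal intensity of 100 or more in at least 1 group and were tested, whereas the other 9, with all those of Sele and Selp, did not reach it. The aortas came from vitamin E-treated ApoE-/- mice (VitE below), ApoE-/- mice without vitamin E (untreated below), which are a model of atherosclerosis, and non-transgenic B6 (C57BL/6J) mice. Vitamin E was given in the diet as tocopherol acetate at 2000 IU per kg for 7 months, starting at an age of 4 to 6 weeks. All mice had the C57BL/6J background, received chow with 7% fat and 0.15% cholesterol, and were 32 to 34 weeks old when the aortas were taken. The ApoE deficiency was present in both the treated and the untreated group. Each group had 2 gene chips, and RNA of 3 whole aortas was pooled on each chip, which leaves the variation from mouse to mouse unmeasured.

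Leukocytes enter the vessel wall in steps. Selectins on endothelial cells slow the cells down, members of the immunoglobulin superfamily such as Vcam1 and Icam1 bind leukocyte integrins and arrest them, and proteins of the endothelial junctions are passed during transmigration. Endothelial cells near disturbed flow are known to display more Vcam1 and Icam1 when cholesterol is high, in part through the transcription factor NF-kB. In a bulk sample, fewer cells of a type and less RNA per cell cannot be told apart, and several of these genes are known to be transcribed outside endothelium as well.

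Sele and Icam1 are textbook targets of NF-kB, so the 250 bases before the start of each are shown as a regulatory context for the values that follow. They are RefSeq sequence of mouse build GRCm38.p6, both on the plus strand, at chr9:21015690-21015939 for Icam1 and at chr1:164047984-164048233 for Sele. Capitals mark matches to GGANATTCC, an NF-kB-like motif, and to TATAAA, each searched on both strands.
Icam1: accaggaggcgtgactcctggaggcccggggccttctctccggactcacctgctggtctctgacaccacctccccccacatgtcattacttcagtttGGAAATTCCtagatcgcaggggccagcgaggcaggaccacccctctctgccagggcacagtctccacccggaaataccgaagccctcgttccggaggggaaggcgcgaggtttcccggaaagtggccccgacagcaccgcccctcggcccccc
Sele: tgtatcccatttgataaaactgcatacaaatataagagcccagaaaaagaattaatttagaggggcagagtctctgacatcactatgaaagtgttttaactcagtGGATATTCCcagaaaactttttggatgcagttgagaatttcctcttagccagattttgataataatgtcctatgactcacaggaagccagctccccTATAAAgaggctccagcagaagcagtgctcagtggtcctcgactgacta
The NF-kB-like motif starts 153 bases before the Icam1 start and 145 bases before the Sele start. It occurs in 0.819% of the 32851 RefSeq promoter windows of the same length, and TATAAA occurs in 12.4% of them. RefSeq promoter windows were used for 5 of the 10 genes, and of these only Icam1 and Sele hold the NF-kB-like motif in the 250 bases. The letters were matched after the genes had been chosen, and a match describes sequence only.

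Signal intensities were scaled per array by the authors, and the mean over all probe sets of an array ranged from 305 to 319. Apoe itself, the deficient gene, read 40.5 and 45.3 in VitE, 93.2 and 57.4 in untreated, and 5209 and 5432 in B6 aortas. The 3′ to 5′ ratio of Gapdh was 1.15 to 1.24 in VitE, 1.03 to 1.06 in untreated and 1.34 to 1.35 in B6 aortas. That of actin was 1.64 in VitE, 1.78 to 1.88 in untreated and 2.01 to 2.06 in B6 aortas. The 18S rRNA control read 184 to 200 in VitE, 88.0 to 101 in untreated and 580 to 595 in B6 aortas. RNA or labelling differences therefore follow the groups and cannot be told apart from them. The untreated and B6 arrays were deposited with an earlier captopril study and the VitE arrays later. Whether all arrays were hybridized together is not stated in the labels, so treatment and batch cannot be told apart in any comparison with VitE aortas. Differences were tested with limma on log2 values (signal intensities under 20 set to 20) over all 17909 probe sets that passed the signal limit. A call is an adjusted p under 0.05 with the Benjamini-Hochberg method. The smallest two-sided p of an exact test of 2 arrays against 2 is 0.333, and the calls therefore depend on limma's pooling of variances over probe sets. Where 1 array is left out below, its group has a single array, which is assumed to vary like those of the other groups.

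Untreated aortas had higher signal intensities than B6 aortas for Vcam1, Icam2, Pecam1 and Cdh5, and lower ones for Mcam and Jam2. The direction for Jam2 is that of its probe set 1436568_at. For its probe sets 1449408_at and 1419288_at the untreated arrays lay above the B6 arrays. The rises ranged from 1.27-fold for Pecam1 to 1.83-fold for Vcam1, with the probe set of highest mean signal intensity taken for each gene. Icam1 and F11r were not called. By gene, 4 of 8 were higher and 2 lower, where 21.1% and 20.8% of all genes tested were, 41.9% in all. By probe set, 6 of the 11 were higher and 2 were lower. Over all probe sets tested, 21.7% were higher and 19.1% were lower in this comparison, 40.8% in all, and 72.7% of the 11 were called. The arrays of the 2 groups did not overlap for 10 of the 11 (8 above and 2 below), against 76.8% of all probe sets tested (40.8% above and 36.0% below). The median log2 difference was 0.34 over the 11 and 0.03 over all probe sets tested. One of the 11, the Vcam1 probe set 1451314_a_at, reached the signal limit only through the untreated arrays, where it was highest, so these shares are descriptions and not support.

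In VitE against untreated aortas, only 1 of the 11 probe sets, the second one of Jam2, was called. It was lower in VitE aortas. Over all probe sets tested, 8.52% were higher and 6.99% were lower in this comparison, 15.5% in all. The arrays did not overlap for 5 of the 11 (2 above and 3 below), against 58.9% of all probe sets tested (30.5% above and 28.4% below). With 1 probe set per gene, limma called 0 of the 8 genes, where 8.18% of all genes tested were higher and 7.64% lower, 15.8% in all. Of the 8, 1 had an unadjusted p under 0.05, and the methods' t-test called 0 after adjustment and gave 2 with an unadjusted p under 0.05. Relative to B6 aortas, VitE aortas had higher signal intensities for Vcam1, Icam2 and Pecam1 and lower ones for Jam2. This was 4 of the 11 probe sets higher and 2 lower, where the shares over all probe sets tested were 21.9% and 19.2%, 41.1% in all. By gene it was 3 of 8 higher and 1 lower, where 21.1% and 21.7% of all genes tested were, 42.8% in all. The arrays did not overlap for 10 of the 11 (7 above and 3 below), against 71.5% of all probe sets tested (37.4% above and 34.0% below). The comparisons with B6 aortas share the B6 arrays, so they are not independent of each other.

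**Figure D1:**
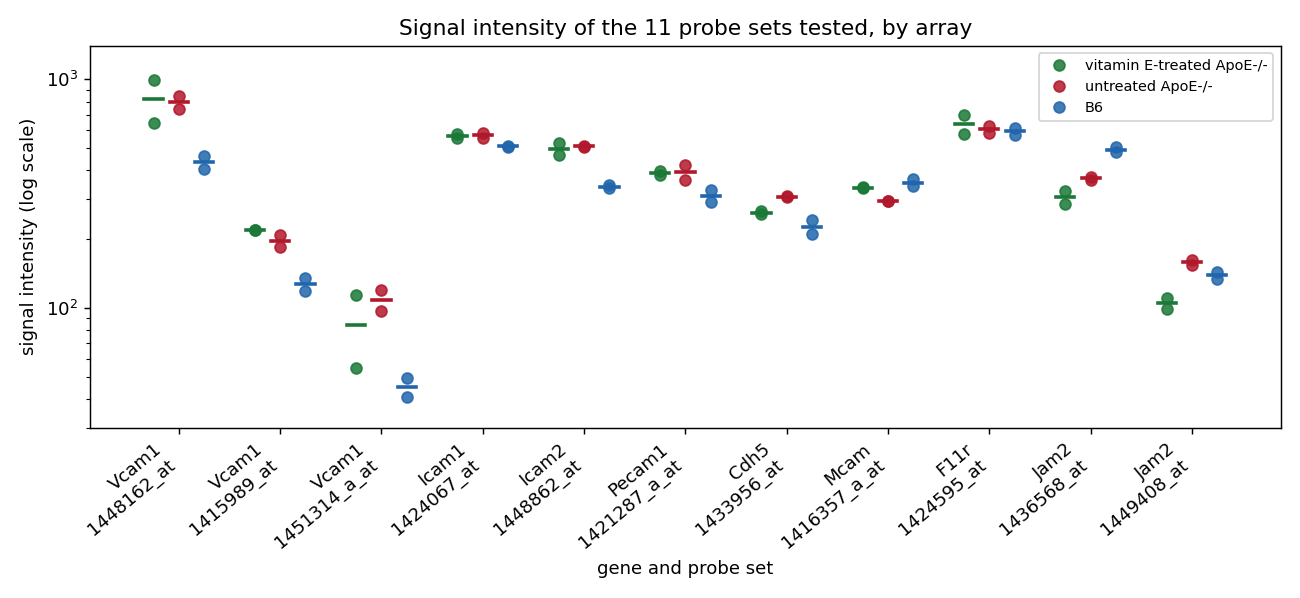
Signal intensity (log axis) of the 11 probe sets tested, with 1 point per array and a bar at the mean of the 2 arrays, for VitE (green), untreated (red) and B6 aortas (blue). All 4 ApoE-/- arrays lie above both B6 arrays for the probe sets of Vcam1, Icam1, Icam2, Pecam1 and Cdh5, and below them for Mcam and for 1436568_at of Jam2.

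Vcam1, the ligand on activated endothelium for the leukocyte integrin of Itga4 and Itgb1, had the widest difference from B6 aortas among these genes. Its probe set 1448162_at gave a signal intensity of 996 and 642 in VitE, 745 and 849 in untreated, and 407 and 463 in B6 aortas. Every ApoE-/- array was above both B6 arrays, and the VitE arrays lay on both sides of the untreated ones. Against B6 aortas, limma gave log2 differences of 0.88 in VitE (standard error 0.19, adjusted p = 0.0087) and 0.87 in untreated aortas (standard error 0.19, adjusted p = 0.0089), the first being 0.57 without VitE replicate 1 and 1.20 without VitE replicate 2. VitE and untreated aortas differed by 0.01 on the log2 scale, with a 95% interval of −0.43 to 0.45, which spans a 1.37-fold rise and a fall to 0.741 of the untreated level. The 2 VitE arrays decide this value, which was −0.31 without VitE replicate 1 and 0.33 without VitE replicate 2.

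A second probe set of Vcam1, 1415989_at, had a signal intensity of 219 and 219 in VitE, 185 and 208 in untreated, and 119 and 135 in B6 aortas, again with no overlap between ApoE-/- and B6 arrays. It was 1.73-fold higher in VitE (adjusted p = 0.0026 from limma) and 1.55-fold higher in untreated than in B6 aortas (adjusted p = 0.0066). Probe set 1451314_a_at entered the test only through its untreated arrays, so its difference is given as a description. It varied more, with 114 and 54.4 in VitE, 97.1 and 119 in untreated, and 41.0 and 49.3 in B6 aortas. This probe set was 2.40-fold higher in untreated than in B6 aortas (adjusted p = 0.021) and was not called in VitE against B6 aortas (adjusted p = 0.092). Without VitE replicate 2 it was called there (log2 difference 1.34, adjusted p = 0.0062). Without VitE replicate 1, which leaves the single VitE value of 54.4, the difference between VitE and untreated aortas was −0.98 (adjusted p = 0.039). The difference of 1448162_at from B6 aortas lost its call without untreated replicate 2 (0.78 in untreated aortas, adjusted p = 0.059) or B6 replicate 1 (0.79 in VitE and 0.78 in untreated aortas, adjusted p = 0.071 and 0.073), and in both comparisons without a filter (adjusted p = 0.15). In untreated against B6 aortas, 1415989_at lost it without the same arrays (0.55 and 0.54), and 1451314_a_at without any 1 of the 4 arrays compared (1.11 to 1.41) or without a filter (adjusted p = 0.2). With the methods' t-test, 1448162_at and 1415989_at lost their calls in both comparisons with B6 aortas (adjusted p = 0.083 to 0.24). The call of 1451314_a_at in untreated against B6 aortas was lost with it too (adjusted p = 0.086).

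Icam1, the cytokine-induced ligand of the leukocyte integrins with the Itgb2 chain, differed little between groups. Probe set 1424067_at had a signal intensity of 575 and 552 in VitE, 582 and 556 in untreated, and 510 and 508 in B6 aortas. The ApoE-/- arrays were all above the B6 arrays, but the difference was small. The untreated level was 1.12-fold the B6 level, with a 95% interval of 0.997 to 1.25-fold (adjusted p = 0.11 from limma), and the VitE level was 1.11-fold the B6 level (adjusted p = 0.14), neither of them called. The interval between VitE and untreated aortas was 0.883 to 1.11-fold.

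Icam2 is a ligand of the same integrin family that resting endothelium and platelets carry. Its probe set 1448862_at had a signal intensity of 467 and 525 in VitE, 510 and 507 in untreated, and 346 and 334 in B6 aortas. Both B6 arrays were well below all 4 ApoE-/- arrays. Icam2 was 1.50-fold higher in untreated than in B6 aortas (log2 difference 0.58, standard error 0.09, adjusted p = 0.0017 from limma) and 1.46-fold higher in VitE than in B6 aortas (0.54, standard error 0.09, adjusted p = 0.0023). In untreated against B6 aortas it was called under all 16 alternatives run, with each array left out in turn among them, and in VitE against B6 aortas under 15 of 16, the exception being the methods' t-test (adjusted p = 0.12). The interval between VitE and untreated aortas was 0.848 to 1.12-fold.

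No probe set of either selectin averaged 100 in any group. Sele encodes E-selectin, which is made by endothelium upon cytokine exposure. Its probe set 1421712_at was under 20 on every array, with 5.12 and 18.4 in VitE, 11.9 and 19.7 in untreated, and 6.86 and 6.07 in B6 aortas, so no fold is given. Selp encodes P-selectin of endothelial and platelet storage granules. Its probe set 1420558_at gave 85.5 and 78.8 in VitE, 104 and 93.1 in untreated, and 63.3 and 99.6 in B6 aortas, and the B6 arrays spanned nearly the whole range. The other 2 probe sets of Selp, 1440173_x_at and 1449906_at, ran in opposite directions between untreated and B6 aortas, with means of 28.6 in untreated against 38.6 in B6 aortas for 1440173_x_at, and 32.4 in untreated against 20.4 in B6 aortas for 1449906_at. The mean of 1420558_at in untreated aortas (98.4) was just below the signal limit.

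**Figure D2:**
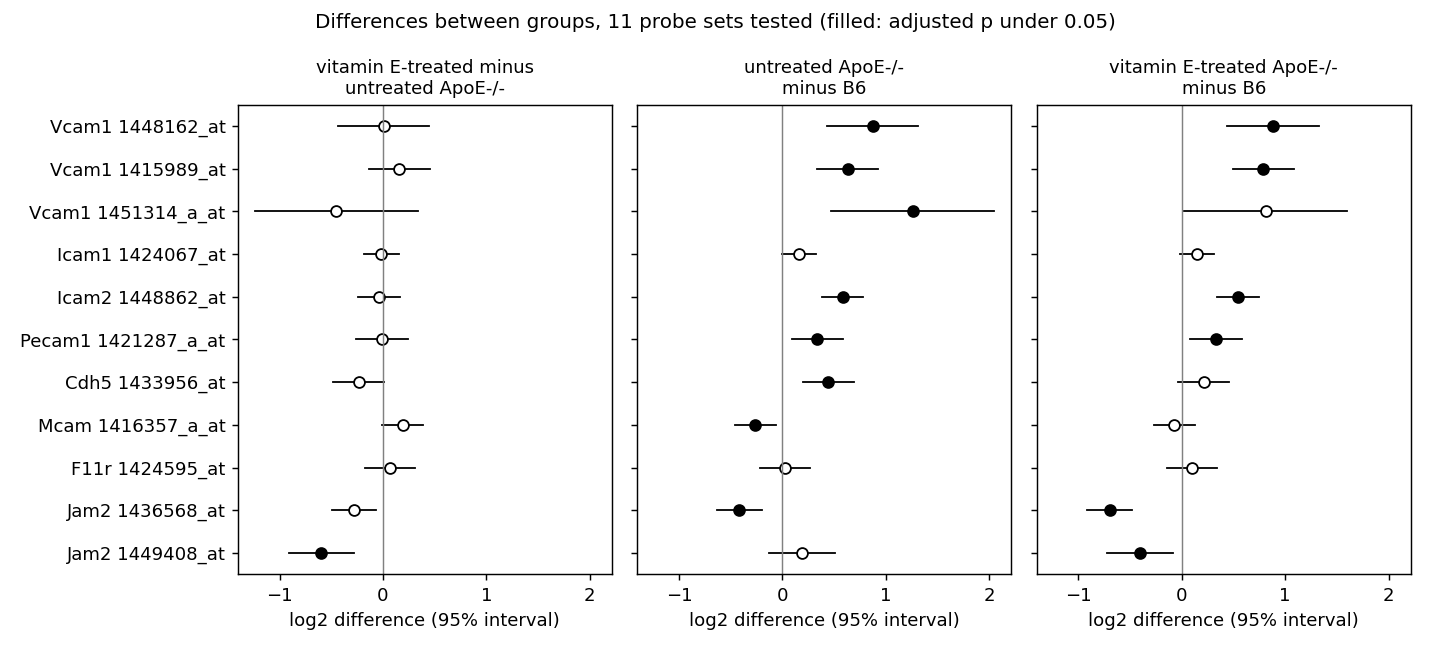
Log2 differences of the 11 probe sets tested, with 95% intervals from limma, for VitE minus untreated (left), untreated minus B6 (middle) and VitE minus B6 aortas (right), where filled points have an adjusted p under 0.05. One point is filled on the left, 8 in the middle and 6 on the right.

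Pecam1, which encodes CD31 of endothelial contacts, platelets and leukocytes, had a signal intensity of 380 and 397 in VitE, 363 and 420 in untreated, and 327 and 291 in B6 aortas (probe set 1421287_a_at). The groups of ApoE-/- arrays overlapped with each other and not with B6. Pecam1 was 1.27-fold higher in untreated (adjusted p = 0.037 from limma) and 1.26-fold higher in VitE than in B6 aortas (adjusted p = 0.04). Both calls are close to the threshold and ended under quantile normalization, median centring, no filter, moderation without trend, the methods' t-test and the replicate number as a block (adjusted p = 0.055 and 0.059 for the last). Without 1 array, the log2 difference between untreated and B6 aortas was not called without untreated replicate 2 (0.23), B6 replicate 1 (0.42) or B6 replicate 2 (0.26). In VitE against B6 aortas it was 0.25 to 0.42 and not called without any 1 of the 4 arrays compared.

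Cdh5 encodes VE-cadherin, the cadherin of endothelial adherens junctions. Its probe set 1433956_at had a signal intensity of 257 and 266 in VitE, 305 and 309 in untreated, and 210 and 242 in B6 aortas. The 3 groups did not overlap, with the VitE arrays between the other two. Cdh5 was 1.36-fold higher in untreated than in B6 aortas (log2 difference 0.45, standard error 0.11, adjusted p = 0.013 from limma). It was not called in VitE against untreated aortas (log2 difference −0.23, 95% interval −0.48 to 0.02, adjusted p = 0.18) or in VitE against B6 aortas (0.21, adjusted p = 0.14). The call against B6 aortas was lost without untreated replicate 1 or 2 or B6 replicate 1 (0.46, 0.44 and 0.34). It was also lost without a filter (adjusted p = 0.059) and with the methods' t-test (adjusted p = 0.12). The second probe set, 1422047_at, was near the floor in all groups, with 23.0 and 25.7 in VitE, 40.7 and 35.1 in untreated, and 18.4 and 24.8 in B6 aortas. It was not tested, and its values are given as a description only.

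Mcam, known as CD146, is an adhesion molecule of endothelial junctions that smooth muscle cells and pericytes also carry. Its probe set 1416357_a_at had a signal intensity of 338 and 334 in VitE, 294 and 295 in untreated, and 340 and 366 in B6 aortas. The untreated arrays were below all others. Mcam was lower in untreated than in B6 aortas, to 0.834 of the B6 level (log2 difference −0.26, standard error 0.09, adjusted p = 0.045 from limma). This call was lost with the replicate number as a block (adjusted p = 0.066), with the methods' t-test (adjusted p = 0.11) and without any 1 of the 4 arrays compared (−0.31 to −0.21). The difference between VitE and untreated aortas was not called (0.19, 95% interval −0.01 to 0.39, adjusted p = 0.18), nor was that between VitE and B6 aortas (−0.07, adjusted p = 0.54).

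F11r, which encodes JAM-A of endothelial and epithelial tight junctions, did not differ beyond its spread. Probe set 1424595_at had a signal intensity of 576 and 699 in VitE, 624 and 584 in untreated, and 573 and 614 in B6 aortas, with overlap among all groups. The 95% interval was 0.889 to 1.24-fold in VitE against untreated aortas (adjusted p = 0.67 from limma) and 0.861 to 1.20-fold in untreated against B6 aortas (adjusted p = 0.86). The second probe set, 1436374_x_at, stayed below the signal limit, between 34.1 and 66.6 over the 6 arrays.

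Jam2 encodes JAM-B, a junctional adhesion molecule that binds Jam3 on neighbouring cells, and its probe sets did not give 1 pattern. Probe set 1436568_at had a signal intensity of 325 and 285 in VitE, 365 and 374 in untreated, and 504 and 482 in B6 aortas. The 3 groups were separate, with the VitE arrays lowest. It was lower in untreated than in B6 aortas (log2 difference −0.42, standard error 0.09, adjusted p = 0.01 from limma) and lower in VitE than in B6 aortas, to 0.617 of the B6 level (−0.70, standard error 0.09, adjusted p = 0.0011). The second of these calls stayed without each array in turn. The call in untreated against B6 aortas was lost without untreated replicate 1 (−0.40) or B6 replicate 1 (−0.38), and without a filter (adjusted p = 0.06). With the methods' t-test both calls were lost (adjusted p = 0.054 in untreated and 0.11 in VitE against B6 aortas). Between VitE and untreated aortas the log2 difference was −0.28 (adjusted p = 0.085), and −0.37 without VitE replicate 1 (adjusted p = 0.033).

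In contrast, probe set 1449408_at of Jam2 had a signal intensity of 111 and 99.3 in VitE, 154 and 163 in untreated, and 144 and 135 in B6 aortas. Its untreated arrays were above the B6 arrays, not below them (1.14-fold, adjusted p = 0.3 from limma). It was lower in VitE than in untreated aortas (log2 difference −0.60, standard error 0.14, adjusted p = 0.027) and lower in VitE than in B6 aortas (−0.41, standard error 0.14, adjusted p = 0.046). The first of these calls was lost without VitE replicate 2, untreated replicate 1 or 2, or B6 replicate 1 or 2 (−0.63 to −0.52). It was also lost without a filter, with only the 2 groups compared and with the methods' t-test (adjusted p = 0.19 for the last). The second call was lost without the same arrays (−0.45 to −0.33) and with the replicate number as a block (adjusted p = 0.063). It was also lost without a filter, with only the 2 groups compared and with the methods' t-test. Probe set 1419288_at was low, at 33.2 and 37.9 in VitE, 48.6 and 52.3 in untreated, and 27.2 and 27.2 in B6 aortas, with B6 lowest. The last 2 probe sets were at or near 20 on all arrays. The part of the transcript that each probe set detects was not examined.

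Most leukocyte partners of these adhesion molecules had higher signal intensities in both groups of ApoE-/- aortas than in B6 aortas. Of 10 counter-receptor genes tested, 7 were higher and 0 lower in untreated than in B6 aortas (median log2 difference 0.52), and 8 were higher and 0 lower in VitE than in B6 aortas (median 0.60). In VitE against untreated aortas, 0 of the 10 were called. Over all genes tested, 21.1% were higher and 20.8% lower in untreated than in B6 aortas. The shares were 21.1% and 21.7% in VitE against B6 aortas, and 8.18% and 7.64% in VitE against untreated aortas. The same shares apply to the lists below. Itgb2, the shared chain of the integrins that bind Icam1 and Icam2, had a signal intensity of 1158 and 1275 in VitE, 1222 and 1228 in untreated, and 874 and 789 in B6 aortas. Itgal, the chain that pairs with it on lymphocytes, was 2.02-fold higher in VitE (adjusted p = 0.00024 from limma) and 1.66-fold higher in untreated than in B6 aortas (adjusted p = 0.00095). Glg1, an E-selectin ligand, was not called in any comparison, with means of 913 in VitE, 1196 in untreated and 1106 in B6 aortas. Itga4 and Itgb1, named after their values were seen because they form the receptor of Vcam1, had log2 differences of 0.57 (adjusted p = 0.0071) and 0.01 (adjusted p = 0.94) in untreated against B6 aortas.

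Inducers of adhesion molecules and NF-kB target genes moved in part. Of 11 tested, 6 were higher and 0 lower in untreated than in B6 aortas (median 0.35), 4 were higher and 1 lower in VitE than in B6 aortas (median 0.26), and 0 were called in VitE against untreated aortas. Cxcl1, a neutrophil chemokine, had a signal intensity of 117 and 176 in VitE, 208 and 203 in untreated, and 102 and 59.6 in B6 aortas, with the highest values in the untreated arrays. Cxcl1 was 2.63-fold higher in untreated than in B6 aortas (adjusted p = 0.0068 from limma). Rela, an NF-kB subunit, and Nfkbia, its inhibitor, had log2 differences of 0.17 and −0.25 in the same comparison and were not called (adjusted p = 0.058 and 0.099). Nfkb2 and Relb, the other NF-kB subunits tested, are named after their values were seen. They were higher in that comparison (1.09 and 0.46, adjusted p = 0.0011 and 0.0077). Il1r1, the receptor of interleukin 1, was not called in any comparison, with means of 86.3, 116 and 112 in VitE, untreated and B6 aortas.

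Other endothelial genes went in both directions against B6 aortas, as did all genes tested. Of 24 endothelial identity genes tested, 6 were higher and 5 lower in untreated than in B6 aortas (median 0.12). The shares over all genes tested were 21.1% and 20.8%. In VitE against B6 aortas 3 were higher and 8 lower (median −0.13), where 21.1% and 21.7% of all genes tested were. In VitE against untreated aortas 0 were higher and 9 lower (median −0.18, against 0.00 over all genes tested). The shares over all genes tested were 8.18% and 7.64%. Vwf, which encodes von Willebrand factor of endothelium and platelets, had a signal intensity of 403 and 411 in VitE, 567 and 577 in untreated, and 828 and 788 in B6 aortas, with the 3 groups apart. It was lower in VitE than in untreated aortas (−0.49, adjusted p = 0.0046 from limma) and lower in untreated than in B6 aortas (−0.50, adjusted p = 0.0013). Robo4, a receptor of endothelial stability, fell to 130 ± 7.06 in VitE aortas, against 197 ± 8.26 in untreated aortas (SD, n = 2 each, adjusted p = 0.036 from limma). Ets1, an endothelial and lymphocyte transcription factor, was 1.39-fold higher in untreated than in B6 aortas (adjusted p = 0.02), and Fabp4 of adipocytes and capillary endothelium was not called (adjusted p = 0.14).

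Among 13 other junction genes tested, 3 were higher and 3 lower in untreated than in B6 aortas (median 0.10), 0 were higher and 3 lower in VitE than in untreated aortas (median −0.10), and 2 were higher and 3 lower in VitE than in B6 aortas (median −0.19). In the same order, the shares over all genes tested were 21.1% and 20.8%, 8.18% and 7.64%, and 21.1% and 21.7%. Cdh2, the N-cadherin of smooth muscle and other cells, had a signal intensity of 288 and 261 in VitE, 499 and 484 in untreated, and 467 and 451 in B6 aortas. The 3 groups did not overlap, with the VitE arrays lowest, and Cdh2 was lower in VitE than in untreated aortas (−0.84, standard error 0.09, adjusted p = 0.0011 from limma). Cdh13, a cadherin without a cytoplasmic part, was 1.89-fold higher in untreated than in B6 aortas (adjusted p = 0.022) and lower in VitE than in untreated aortas (−0.90, adjusted p = 0.047). Ctnna1, the alpha-catenin of adherens junctions, was lower in VitE than in untreated aortas (−0.49, adjusted p = 0.012), while Ctnnb1, the beta-catenin, was lower in untreated than in B6 aortas (−0.46, adjusted p = 0.0065).

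**Figure D3:**
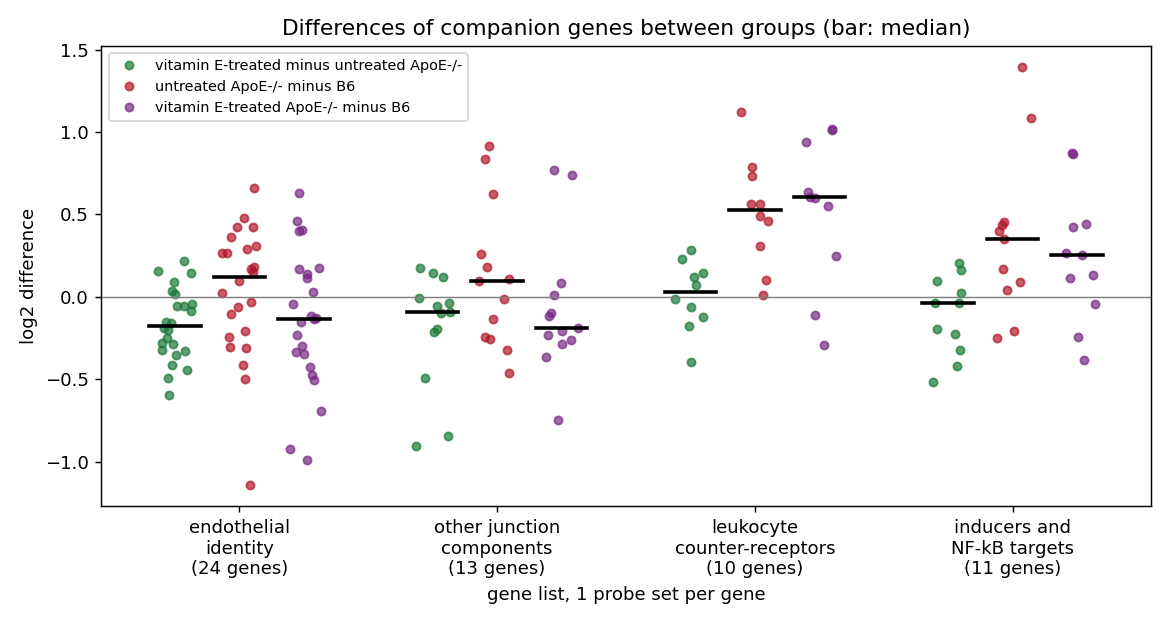
Log2 differences of single genes (points, 1 probe set per gene) and their median (bars) in 4 lists of companion genes, for VitE minus untreated (green), untreated minus B6 (red) and VitE minus B6 aortas (purple). Leukocyte counter-receptors have medians of 0.52 and 0.60 against B6 aortas and 0.03 in VitE against untreated aortas.

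Markers of other cell types differed between the groups as well, in several patterns. For their counts, 21.1% of all genes tested were higher and 20.8% lower in untreated than in B6 aortas. In VitE against untreated aortas these shares were 8.18% and 7.64%. The summed signal intensity of 7 leukocyte genes was 16956 to 17469 in VitE, 16965 to 17282 in untreated and 11486 to 11507 in B6 aortas, so that both ApoE-/- groups lay above B6 aortas, as for Vcam1, Icam2 and Pecam1. These sums are mostly Lyz2, Csf1r and Ptprc (means of 4285, 3281 and 2887 in B6 aortas). Of the 7, 6 were higher in untreated than in B6 aortas, with Lyz2 and Adgre1 of macrophages, Cd3e of T cells and Ptprc of all leukocytes 1.72-, 1.65-, 2.93- and 1.21-fold higher. The 1 not called was Csf1r, also of macrophages, at 1.07-fold the B6 level. In VitE against untreated aortas, 1 of the 7 was higher and 0 were lower. The higher one was Ptprc, with means of 4114 in VitE and 3500 in untreated aortas (log2 difference 0.23, adjusted p = 0.046 from limma). Platelet genes had sums of 889 to 942 in VitE, 1103 to 1208 in untreated and 841 to 910 in B6 aortas, with Gp9 under 20 on every array. Pf4 alone of the 3 tested was called, with means of 589 in VitE, 810 in untreated and 595 in B6 aortas, while Itga2b and Ppbp were not.

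Genes of thymus and epithelium differed between VitE and untreated aortas too. The sums of 6 thymus genes were 7149 to 7283 in VitE, 3699 to 4632 in untreated and 404 to 430 in B6 aortas, and of the 5 tested, 4 were higher in VitE than in untreated and 5 higher in untreated than in B6 aortas. Rag1 averaged 2980 in VitE and 1973 in untreated aortas and was under 20 on both B6 arrays, as was Psmb11, which averaged 260 in VitE and 114 in untreated aortas. Dntt averaged 1852 in VitE, 693 in untreated and 22.7 in B6 aortas, and was not called between VitE and untreated aortas. Epithelial genes had sums of 4850 to 5160 in VitE, 3008 to 3096 in untreated and 2553 to 2581 in B6 aortas, and 4 of 7 were higher in VitE than in untreated aortas, among them the keratins Krt5, Krt8 and Krt14 (1.98-, 1.41- and 2.96-fold).

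The sums of lung genes were lowest in VitE aortas. Sftpc, a surfactant protein, averaged 99.3 in VitE, 1414 in untreated and 3103 in B6 aortas, and Ager averaged 51.0 in VitE, 219 in untreated and 547 in B6 aortas. Of 5 tested, 3 were lower in VitE than in untreated aortas (median log2 difference −1.96) and 3 lower in untreated than in B6 aortas (median −0.73). The sums, 10335 to 10426 in VitE, 12997 to 13406 in untreated and 15861 to 16510 in B6 aortas, are mostly Scgb1a1 (means of 9936 in VitE, 11108 in untreated and 11960 in B6 aortas), which was not called between VitE and untreated aortas.

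Mcam is also made by mural cells. Pericyte genes had sums of 7384 to 7474 in VitE, 7707 to 7732 in untreated and 9279 to 9376 in B6 aortas, with 1 of 6 lower in VitE than in untreated (Cspg4, −0.54) and 3 of 6 lower in untreated than in B6 aortas, among them Rgs5 (−0.26) and Pdgfrb (−0.64), while Kcnj8 was not called. Smooth muscle genes had sums of 15510 to 16583 in VitE, 17292 to 17895 in untreated and 18372 to 18951 in B6 aortas, with 2 of 6 lower in VitE than in untreated (Myh11, −0.34, and Cnn1, −0.34) and 1 of 6 higher in untreated than in B6 aortas, while Acta2 and Tagln were called in neither. These sums are mostly Acta2 (means of 9161 in VitE, 9465 in untreated and 10953 in B6 aortas). The median log2 difference over the 6 genes was 0.11 in untreated against B6 aortas. Lymphatic genes had sums of 1497 to 1646 in VitE, 1382 to 1463 in untreated and 1547 to 1551 in B6 aortas, with Lyve1 lower in untreated than in B6 aortas (−0.23) and Flt4 and Pdpn not called. Genes of high endothelial venules, of which only Glycam1 was tested and not called, had sums of 4602 to 5198 in VitE, 5536 to 5599 in untreated and 5067 to 5082 in B6 aortas. The part of these cells in the differences was not tested.

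Many genes ran like single members over the 6 arrays on the log2 scale. The measure was Pearson's r over 6 arrays of 3 groups against 10442 genes, given as a description, since arrays of a group share their tissue and scaling. For Vcam1 the nearest were Cbx1, Elf1 and Macf1 (r = 0.995 each), for Icam2 Anxa2, Akt1 and Gpr18 (r = 0.9996, 0.999 and 0.999), for Jam2 Megf9, Ogn and Syap1 (r = 0.998, 0.998 and 0.997), and for Cdh5 Acan, Aldh1b1 and Fem1a (r = 0.995, 0.994 and 0.993). An r above 0.95 was reached by 99 genes for Vcam1, 487 for Icam2, 309 for Jam2 and 94 for Cdh5, so the nearest genes are picked from many like ones.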

How the data were processed

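Signal intensities of 6 Affymetrix MG430 2.0 gene chips were used as deposited. The authors computed each intensity with GCOS and scaled it per array to a target of 200, and the values are linear. The genome build behind the array annotation is not given in the sources used here. Of the 45101 probe sets, 64 are controls, and 34945 were assigned to 1 symbol, 932 to several and 9160 to none. Members were probe sets with 1 listed symbol. Members and gene lists were chosen with earlier results of these data known.

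The floor was 20, below which signal intensities were raised to it before taking log2. A probe set entered the fit when a group averaged at least 100. The fit used limma 3.58.1 (R 4.3.3) with a mean for each group over all 6 arrays and a variance trend (residual degrees of freedom 3, prior 4.46), and p-values were adjusted with the Benjamini-Hochberg method. Levels of single member probe sets are not compared with each other. The sums of a list add signal intensities of different probe sets, so they weigh most on its genes of highest signal intensity. All member probe sets are named. Of each list, the 2 genes with the highest signal intensity and the 2 with the largest difference between VitE and untreated aortas are named, other genes where stated. The lists were endothelial identity, other junction genes, leukocyte counter-receptors, inducers and NF-kB targets, smooth muscle, pericytes, leukocytes, platelets, epithelium, lung, thymus, lymphatic endothelium and high endothelial venules. On simulated data, 80 of 100 probe sets changed by 2-fold and 92 of 100 changed by 4-fold were recovered in untreated against B6 aortas. In VitE against untreated aortas 65 and 93 were recovered. False calls were 4 and 5 among the unchanged ones of 17909 probe sets. The simulation changed only these few probe sets, in a single group and with independent normal noise, and no change under 2-fold. In the data 40.8% and 15.5% of probe sets were called. The recovery and false calls of the reported tests are therefore not measured by it. Whether pools share animals is not stated, so p-values measure only the spread between arrays.

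Other settings tried were normalization by quantiles or by centring on medians, a floor of 50, the filter removed or set on the mean of all arrays, moderation with no trend, a fit of 2 groups alone, a block for the replicate number, leaving out single arrays, a single probe set for each gene, and the methods' t-test.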

Additional observations from a re-analysis of the deposited data

How the results depend on the processing

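Over 33 differences of member probe sets and their alternatives, 516 values were computed. Of these, 430 kept direction and side of the threshold, 70 lost the call, 3 gained it and 13 changed sign, all 13 in differences that were not called. Changes of sign occurred for F11r in untreated against B6 aortas after median centring (−0.0185), and otherwise when 1 array was left out. In VitE against untreated aortas, leaving out 1 array gave log2 differences of −0.31 to 0.33 for Vcam1 1448162_at, −0.98 to 0.0832 for 1451314_a_at, −0.0476 to 0.0182 for Icam1, −0.12 to 0.0459 for Icam2, −0.11 to 0.0964 for Pecam1 and −0.0673 to 0.21 for F11r. For F11r they were −0.0243 to 0.0764 in untreated and −0.0412 to 0.24 in VitE against B6 aortas. The cause was not tested.

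In VitE against untreated aortas, where 1 of 11 member probe sets and 2777 of all were called, no filter gave 0 and 949, only the 2 groups compared gave 0 and 1700, and 1 probe set per gene gave 0 and 1828. With the methods' t-test, 0 and 179 passed at the thresholds of the methods, and 0 and 0 after adjustment. Leaving out 1 array gave 0 to 3 members and 817 to 3506 probe sets. In untreated against B6 aortas, where 8 and 7305 were called, no filter gave 5 and 4494 (3 of the 8, Vcam1 1415989_at, Icam2 and Mcam, and 2 otherwise untested, Selp 1449906_at and Jam2 1419288_at), 1 probe set per gene gave 4606 probe sets, and under the methods' t-test 0 and 768 passed, and 1 and 2156 after adjustment. Leaving out 1 array gave 1 to 8 members and 4326 to 8777 probe sets. In VitE against B6 aortas, where 6 and 7368 were called, no filter gave 3 and 4464 (the 3 being Vcam1 1415989_at, Icam2 and Jam2 1436568_at), 1 probe set per gene gave 4758 probe sets, and under the methods' t-test 0 and 582 passed, and 0 and 67 after adjustment. Leaving out 1 array gave 3 to 5 members and 4332 to 7470 probe sets. No filter tests 45037 probe sets and 1 probe set per gene tests fewer, which changes the adjustment.

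Same-numbered arrays of different groups deviated with correlations of −0.10 to 0.05 across probe sets. These values show no large shift shared by same-numbered arrays, and they cannot show whether such arrays were handled together. With the replicate number as a block, 1, 6 and 4 member probe sets and 2185, 6887 and 6991 probe sets were called in the 3 comparisons. The 2 arrays per group limit the precision, and signal intensities near 20 carry no order.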
